A study of Mus musculus with 14 samples.

Results

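The genes described here encode the proteins of the cytosolic ribosome. They were taken by name from GENCODE M21, the mouse annotation on GRCm38: protein-coding genes called Rpl or Rps with a number, Rplp0 to Rplp2, and Rpsa. The rule matched 81 genes, of which 78 were listed in both kinds of count file, out of 17487 genes listed in both. The other 3, Rpl3l, Rpl10l and Rpl39l, were listed in set 1 files only, where the highest value in any library was 0.557 CPM (counts scaled to library size), for Rpl3l. The 78 members lie on 19 chromosomes. Of these, 31 encode proteins of the small subunit, 3 the stalk of the large subunit and 44 the rest of the large subunit.

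The libraries came from APT organoids, a mouse small intestinal tumor organoid line grown in culture. A short hairpin RNA switched on by doxycycline was aimed at Suv4-20h2 (symbol Kmt5c), a histone H4 lysine methyltransferase. Set 1 holds control 1 (control hairpin, n = 3) and hairpin 1 (exon 4 of the gene, n = 3). Set 2 holds control 2 (control hairpin, n = 4) and hairpin 2 (exon 9, n = 4). All 14 cultures, controls included, were kept for 4 days in 0.5 µg/ml doxycycline. The labels give each set as 1 clone, do not spell out the letters APT, and do not say whether replicates were separate cultures, so p-values measure only the spread between these libraries. Set, clone, file type and any batch cannot be told apart. In bulk RNA, fewer cells of a type and less RNA per cell cannot be told apart either.

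Most ribosomal proteins are made from a single working gene with introns, and the spliced messenger RNA has been copied back into the genome many times, leaving processed pseudogenes that resemble the coding sequence. The messages are short, abundant and translated under the control of growth signals through a pyrimidine tract at the very start of the RNA (the TOP motif). Most of the proteins are needed in equal amounts, and Rpl5 and Rpl11 outside the ribosome bind the p53 regulator MDM2. In fast-growing intestinal epithelium these genes are among the most highly expressed.

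How far a coding sequence can be told from its copies differed widely between members, and the sequences below show the range, since the difference between the sets described later followed it. Each is the first 90 bases of a coding sequence in GENCODE M21, 5′ to 3′. In a copy, capitals mark bases that differ from the gene, and lower case marks bases that match. Rps6, a small subunit protein phosphorylated by S6 kinase, lies at chr4:86854660-86857412 on the minus strand. Its pseudogene Rps6-ps4 at chr2:75191073-75191822, also on the minus strand, matched all 747 coding bases.
Rps6: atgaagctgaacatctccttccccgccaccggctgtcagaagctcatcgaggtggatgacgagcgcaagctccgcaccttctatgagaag
Rps6-ps4: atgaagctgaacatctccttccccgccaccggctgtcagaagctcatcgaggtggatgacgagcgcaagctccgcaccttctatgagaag
Rpl32, a large subunit protein, lies at chr6:115805505-115808747 on the minus strand. The closest annotated pseudogene that spanned its 405 coding bases, Gm7434 at chr8:4391726-4392133 on the plus strand, differed from it at 19 of them.
Rpl32: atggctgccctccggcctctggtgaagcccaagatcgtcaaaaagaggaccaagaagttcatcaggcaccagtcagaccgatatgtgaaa
Gm7434: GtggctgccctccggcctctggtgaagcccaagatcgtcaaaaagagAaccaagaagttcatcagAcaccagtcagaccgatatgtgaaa
Rpl22, an RNA-binding large subunit protein, lies at chr4:152325742-152334071 on the plus strand, and is shown because fewer than 50% of its coding windows, defined next, were found at another locus.
Rpl22: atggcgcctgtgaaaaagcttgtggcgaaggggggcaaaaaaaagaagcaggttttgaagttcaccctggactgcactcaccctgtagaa
For every member, the share of 50-base windows of the coding sequence found exactly in an annotated transcript of another locus was computed. It was 100% for Rps6 and 28 other members, 36.0% for Rpl32 and 31.0% for Rpl22, with a median of 90.8% over the 78. Among 10068 other protein-coding genes at a control 1 mean of 5 CPM or above, the median was 0%, and 0.576% of them reached 100%.

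Total counts ran from 9272134 to 26284079. In set 2 the deepest hairpin 2 library had 25267211 counts, and replicates 3 and 4 of that group had 9272134 and 11956927. The targeted gene, Kmt5c, stood at 72.8 to 80.9 CPM in control 1 and 58.2 to 69.9 CPM in hairpin 1, and at 109.0 to 121.5 CPM in control 2 and 93.0 to 108.5 CPM in hairpin 2. Its adjusted p in edgeR's quasi-likelihood test was 0.801 for hairpin 1 and 0.0977 for hairpin 2, or 0.0074 for hairpin 2 with the replicate number as a block. All 8 epithelial markers (Epcam, Cdh1 and Vil1 among them) were at 1 CPM or more in every library. At most 2 of 5 leukocyte, 1 of 5 fibroblast and 1 of 4 endothelial markers were. Set 2 files do not list Cd3e, Cd79a, Lyz2, Col1a2, Dcn, Emcn, Kdr and Pecam1, so these markers could not be read there. The fibroblast marker Pdgfra had means of 0.339 CPM in control 1, 0.762 in hairpin 1, 9.36 in control 2 and 13.6 in hairpin 2. Hairpin 1 replicate 1 stood apart from its group, with a chi-square per gene of 233 and 276 against the other replicates, which differed from each other by 23.0. It also had the highest summed endothelial and leukocyte markers, 48.6 and 53.7 CPM. In set 2 the libraries numbered 4 stood apart, at 18.5 to 31.1 per gene against 2.83 to 4.88 between the others of a group.

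Ribosomal protein genes took a far larger part of the counts in set 1 than in set 2. Their share was 10.6%, 9.29% and 12.3% in the libraries of control 1, and 7.13%, 9.84% and 11.6% in those of hairpin 1. In control 2 it was 1.86%, 1.86%, 1.70% and 1.96%, and in hairpin 2 1.76%, 1.64%, 1.56% and 1.77%. The lowest library of set 1 was above the highest of set 2, and the 95% exact binomial interval of the highest library ran from 12.257% to 12.287%, which covers counting error only. Group means were 10.7% ± 1.495 (SD, n = 3), 9.52% ± 2.25 (SD, n = 3), 1.84% ± 0.107 (SD, n = 4) and 1.68% ± 0.0987 (SD, n = 4), in the order just given.

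Within each set the hairpin and control shares overlapped. The share in hairpin 1 minus that in control 1 was -1.21 percentage points, with p = 0.5 in an exact two-sided permutation test whose smallest possible p was 0.1. For hairpin 2 minus control 2 it was -0.165 percentage points, with an exact permutation p = 0.0857, where the smallest possible was 0.0286. Adjusted over these 2 comparisons (Benjamini-Hochberg), the permutation p-values were 0.5 and 0.171. In set 2 the hairpin library was below the control library of the same number in 4 of 4 pairs, and in set 1 in 2 of 3. Without hairpin 1 replicate 1 the set 1 difference was -0.014 percentage points, and without control 1 replicate 3 it was -0.44.

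**Figure D1:**
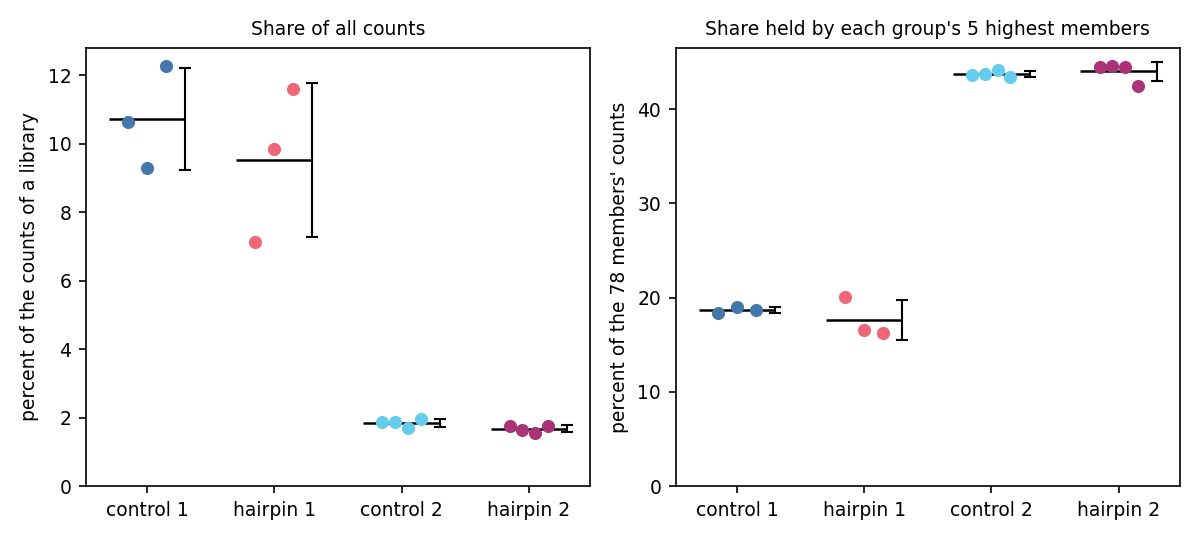
Left, percent of each library's counts in the 78 ribosomal protein genes. Right, percent of those counts held by the 5 members with the highest mean CPM in that group. Points are libraries, lines are group means and bars are ± SD (n = 3 in set 1, n = 4 in set 2). Set 1 libraries sit at 7.13% to 12.3% on the left and 16.2% to 20.1% on the right, and set 2 libraries at 1.56% to 1.96% and 42.5% to 44.6%.

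The counts were also spread over the members differently. In control 1 the 5 members with the most counts were Rplp0, Rpsa, Rpl4, Rpl6 and Rpl5, which held 18.4% to 19.03% of the members' counts. In control 2 the 5 with the most counts, Rpl4 and Rplp0 among them, held 43.5% to 44.2%. The 29 members whose coding windows were all found elsewhere held 33.0% of the members' counts in control 1 and 4.35% in control 2. In every set 1 library 3 members were under 30 CPM, against 24 to 28 in the set 2 libraries.

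Per kilobase of 1 annotated transcript a gene, the highest members in control 1 were Rplp0 (5395 CPM per kb), Rplp1 (4550), Rps12 (3805), Rps15 (3495) and Rpl32 (3398). Rplp0 and Rplp1 form the stalk of the large subunit, which recruits elongation factors. In control 2 Rpl8 (1657 CPM per kb), Rpl4 (1631), Rplp0 (1046) and Rplp1 (970) were among the highest. Rps12 stood at 48.1 CPM per kb there. The rank order of the members was shared between control and hairpin within a set, with a Spearman correlation of mean CPM over 78 members of 0.97 in set 1 and 1.00 in set 2, and less so between the controls, at 0.41. These are correlations across genes of the same libraries, and the members share depth and scaling.

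The difference between the sets was far from even. Control 2 was lower than control 1 for 75 of 78 members, by more than 2-fold for 69, more than 8-fold for 46 and more than 64-fold for 23. On the log2 scale of mean CPM the median member differed by -3.52, beside 0.01 for all genes tested, and the members ran from -9.18 to 2.40. In edgeR's quasi-likelihood test with Benjamini-Hochberg adjustment, 74 of 78 members were lower and 2 were higher, where 30.8% and 33% of 15043 genes were. The control libraries of the sets did not overlap for 73 members lower and 2 higher, where 32.6% and 37.3% of genes did not. Scaling by total counts in place of TMM (trimmed mean of M-values) moved the median of all genes to 0.22 and that of the members to -3.30.

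Rps6 showed the largest drop. It stood at 1469, 1135 and 1754 CPM in control 1 and at 1133, 1054 and 1200 CPM in hairpin 1. In set 2 it stood at 2.73, 1.97, 2.98 and 2.35 CPM in control 2 and at 1.91, 2.61, 2.33 and 3.55 CPM in hairpin 2. The sets did not come near each other, and the control means differed 579-fold (log2 difference by edgeR -9.17 ± 0.25 SE, adjusted p = 2.9e-11).

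Rpl19, Rpsa, Rps29, Rpl23a and Rpl21 followed. Rpsa, a small subunit protein also known as the laminin receptor, stood at 4707, 4008 and 5936 CPM in control 1 and 12.6, 12.1, 11.8 and 11.7 CPM in control 2. That is a 405-fold difference in means, and the control 2 libraries lay within 1 CPM of each other. Rpl19 went from a mean of 971 to 2.26 CPM, a 430-fold difference. Rpl23a went from 207 to 0.823 CPM. Rps29 differed 311-fold and Rpl21 212-fold. The coding windows of these 5 were found elsewhere in full, except for Rpsa, at 98.8%. Over the whole transcript, with its untranslated ends, fewer windows were found elsewhere. That share was 79.3% for Rpl19, 43.9% for Rpsa, 35.8% for Rps29, 82.6% for Rpl23a and 26.2% for Rpl21.

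Rpl5 and Rpl11, which bind MDM2 outside the ribosome, were also among the low ones. Rpl5 stood at 3029, 2048 and 3261 CPM in control 1 and 15.8, 15.4, 16.1 and 18.8 CPM in control 2, a 168-fold difference. Rpl11 stood at 1842, 1535 and 2223 CPM in control 1 and 10.4, 8.55, 7.90 and 9.30 CPM in control 2, a 207-fold difference. Both had all their coding windows at other loci.

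At the other end, Rpl22 stood at 618, 440.5 and 696 CPM in control 1 and 415, 420, 388 and 452 CPM in control 2. The lowest control 1 library lay inside the range of control 2. The log2 difference was -0.48 ± 0.16 SE (adjusted p = 0.017), with 31.0% of its coding windows elsewhere. Rpl4, a large subunit protein of the exit tunnel, stood at 3655, 3012 and 4330 CPM in control 1 and 2512, 2539, 2430 and 2550 CPM in control 2, a log2 difference of -0.55 ± 0.13 SE (adjusted p = 0.0027). Rps3, near the entry of the messenger RNA channel, differed by -0.59 ± 0.17 SE (adjusted p = 0.0086). These 3 members were lower in control 2 in edgeR's test.

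**Figure D2:**
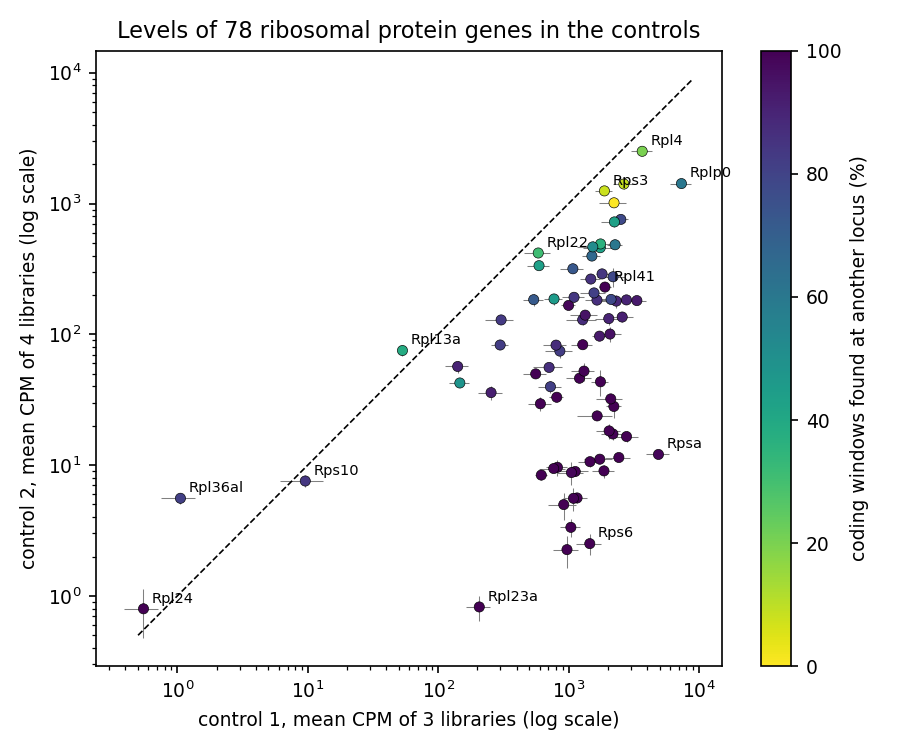
Mean CPM of each of the 78 members in control 1 (horizontal, n = 3) and control 2 (vertical, n = 4), both on log scales, with bars of ± SD and colour for the percent of 50-base coding windows found at another locus. The dashed line marks equal levels. Light points (few windows elsewhere), such as Rps3 and Rpl4, lie near the line, and dark points spread down to Rps6 and Rpl23a at 2.51 and 0.823 CPM in control 2.

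The size of the difference followed the share of coding windows found elsewhere. Among the 78 members, the rank correlation (Spearman's rho) of the log2 difference with that share was -0.82, and -0.87 without the 4 members that overlap another gene, described below. The 3 members with up to 10% of coding windows elsewhere differed by a median of -0.91. The 9 members at 10% to 50% had a median of -1.63, the 6 at 50% to 75% of -1.85, and the 18 at 75% to 90% of -2.95. The 13 at 90% to under 100% had a median of -4.16, and the 29 at 100% of -6.81. Leaving out the overlapped members, those at 100% ran from -9.18 to -3.05, and the 11 under 50% from -2.05 to -0.48, so these ranges did not overlap. The measure by coding windows was chosen after the data were seen.

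Counting copies gave a weaker relation. The number of other loci that hold at least 10% of the 50-base windows of the whole transcript ran from 0 for 6 members to 33 for Rps2, with a median of 4, and its rho with the difference was -0.53. Rps2 itself, with 33 such loci, had 84.1% of its coding windows elsewhere and differed 6.23-fold. Rpl29, with 26 loci and 90.3%, differed 2.48-fold, while Rps29, with 3 loci and 100%, differed 311-fold. The number of pseudogenes named after the gene gave a rho of -0.42. The points of these correlations are genes of the same 7 control libraries, and no p is given.

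Transcript length showed little relation with the difference. Lengths are of 1 annotated transcript a gene, and whether that is the one expressed here was not tested. They ran from 345 bases (Rps27) to 5179 (Rps15a), with a median of 834, and rho was 0.041. With coding length rho was -0.066, with the length of all merged exons 0.015 and with GC content 0.19. The 11 members of up to 500 bases had a median difference of -4.37 and the 11 over 1500 bases of -2.99. Members of similar length differed widely: Rpsa, with 1938 bases, differed 405-fold and Rpl22, with 2051, 1.40-fold. All 11 members of up to 500 bases were more than 2-fold lower, from -8.28 to -1.79. Length and the share of coding windows elsewhere were themselves nearly unrelated across the members (rho -0.068).

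**Figure D3:**
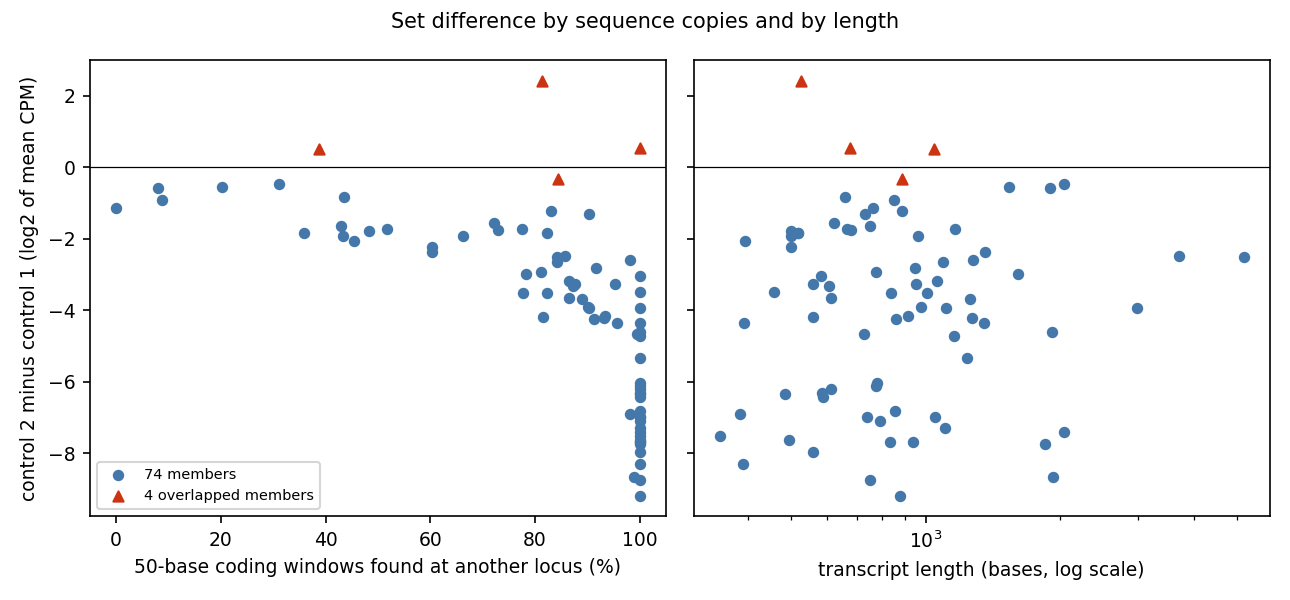
Difference between control 2 and control 1 (log2 of mean CPM, vertical) for 74 members (circles) and the 4 overlapped members (triangles), against the percent of 50-base coding windows found elsewhere (left) and the transcript length in bases on a log scale (right). The points fall from between -2.05 and -0.48 at under 50% of windows, overlapped members aside, to between -3.05 and -9.18 at 100%, and show little trend with length.

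Among other genes the difference also varied with the share of coding windows, and with length. The 10068 other protein-coding genes were chosen by a control 1 mean of 5 CPM or above, with no such limit in control 2. That choice favours genes lower in control 2, and the members were not filtered in this way. Of the 10068, the 9099 with up to 10% of coding windows elsewhere had a median difference of -0.01, and the 58 at 100% of -3.18. More than 2-fold lower in control 2 were 15.4% of the first and 87.9% of the second. Over all of them rho with the share of coding windows was -0.19 and with transcript length 0.43. Genes with no coding window elsewhere had a median difference of -0.93 up to 750 bases (n = 136) and of 0.32 over 3000 bases (n = 4421). Members and other genes at 100% had medians of -6.81 and -3.18. The 2 sets were chosen differently, and the difference between them was not tested.

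The pseudogenes named after a ribosomal protein gene held few counts in either set. In set 1, 289 of these were listed and held 0.0570% to 0.0891% of the counts of a library. In set 2, 40 were listed and held 0.00629% to 0.00808%. Copies with other names, such as Gm7434, are not in these shares. For Rps6, the 9 annotated pseudogenes with coding windows in common held 585 counts over the control 1 libraries, beside 68599 for Rps6. The 2 of them listed in set 2 held 52 counts over the control 2 libraries. For Rpsa, 8 such pseudogenes listed in set 2 held 1886 counts in control 2, beside 1191 for the gene itself. For some members such pseudogenes held more in control 1. They held 34724 counts for Rplp0, beside 346128 for the gene, 22304 beside 85269 for Rps2, and 3995 beside 6661 for Rpl29. How reads that fit several loci were counted is not given in the sources used here, and its part in the difference was not tested.

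Another gene is annotated over 4 members, among them the 3 that were not lower in control 2. Rpl24, Rpl13a, Rpl36al and Rps10 share 47.0%, 35.4%, 24.5% and 20.6% of their exon bases with another gene on the same strand. Beyond small RNA genes these are Gm28037, Gm45713, Gm49383 and RPS10-NUDT3, all listed at 0 in the 6 libraries of set 1 and not listed in set 2. Rpl24, a large subunit protein, stood at 0.578, 0.693 and 0.380 CPM in control 1 and at 0.598, 0.798, 0.539 and 1.25 CPM in control 2. Rps10 stood at 5.85, 10.1 and 12.8 CPM and at 8.28, 6.997, 6.75 and 8.20 CPM. Rpl24 was near the floor in both sets and Rps10 was low in both. Neither passed edgeR's test between the controls (adjusted p = 0.25 and 0.26).

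Rpl13a, a large subunit protein whose introns hold small nucleolar RNAs, stood at 53.5, 54.2 and 52.0 CPM in control 1 and 76.6, 74.1, 66.6 and 83.5 CPM in control 2, with no overlap. Rpl36al, a retained paralogue of Rpl36a, stood at 0.771, 1.39 and 1.01 CPM in control 1 and 5.38, 5.40, 6.36 and 5.16 CPM in control 2. They were the 2 members higher in control 2 in edgeR's test, by log2 differences of 0.50 ± 0.17 SE (adjusted p = 0.018) and 2.39 ± 0.24 SE (adjusted p = 2.3e-06). Rpl36al was near the floor in control 1, with 12, 22 and 16 counts in its libraries.

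Other paralogues and core-bound proteins fell between. Rps27l, the p53-responsive paralogue of Rps27, stood at 172, 123 and 144 CPM in control 1 and 45.2, 45.2, 40.2 and 39.2 CPM in control 2. Its parent Rps27, with all coding windows elsewhere against 48.3% for Rps27l, differed 184-fold beside 3.45-fold. Rpl41, the shortest ribosomal protein, stood at 1872, 1714 and 2110 CPM in control 1 and 239, 223, 215 and 241 CPM in control 2, an 8.27-fold difference. That was the smallest drop among the members with all coding windows elsewhere and no overlapping gene. By subunit, the median difference was -4.05 for the 44 large subunit genes outside the stalk, -2.99 for the 31 small subunit genes and -2.23 for the 3 stalk genes. The median shares of coding windows elsewhere were 94.5%, 87.7% and 60.4%.

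Genes that work with the ribosome differed by the same measure. Fau, whose product is cleaved to yield a ribosomal protein, had all its coding windows elsewhere and went from a mean of 1697 to 16.8 CPM between the controls. Rack1, the scaffold on the small subunit head, had 1.44% elsewhere and went from 3117 to 1829 CPM. Among elongation factors, Eef1g (90.02% elsewhere) went from 2699 to 134 CPM and Eef2 (9.47%) from 5287 to 4647 CPM. Over the 11 genes of the elongation factor list, rho of the log2 difference with the share of coding windows was -0.76. That list also holds other genes of translation, Etf1, Gspt1, Abce1, Eef2k and Eef1e1. In other lists it was weaker: -0.49 over 30 initiation factors and -0.36 over 50 ribosome biogenesis factors. Over 77 mitochondrial ribosomal proteins it was -0.35, and over 20 genes of RNA polymerase I -0.14. The 77 mitochondrial ribosomal proteins, a separate gene family with a median of 0% of coding windows elsewhere, had a median difference of -1.03. Of these 66 were called lower and 0 higher, where 30.8% of all genes were lower and 33% higher.

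The median member was lower in every hairpin 2 library than in the control library of the same number, while in set 1 replicates of a group differed by more than the groups did. Relative to the control mean of its own set, the median of the 76 members with at least 5 CPM in control 1 was -0.0029, -0.30 and 0.26 on the log2 scale in the control 1 libraries. In the hairpin 1 libraries it was -0.59, -0.14 and 0.17. In set 2 it was 0.0047, -0.0031, -0.13 and 0.11 in control 2 and -0.084, -0.19, -0.30 and -0.065 in hairpin 2. In set 2 the hairpin median was below that of the control library of the same number in 4 of 4 pairs. Across pairs, control 2 replicate 3 was lower than 2 of the hairpin 2 libraries. The members moved together within a library: in control 1 replicate 3, 74 of 76 were above their control mean, and in hairpin 1 replicate 1, 75 of 76 were below it. The medians of other genes stayed between -0.036 and 0.031.

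**Figure D4:**
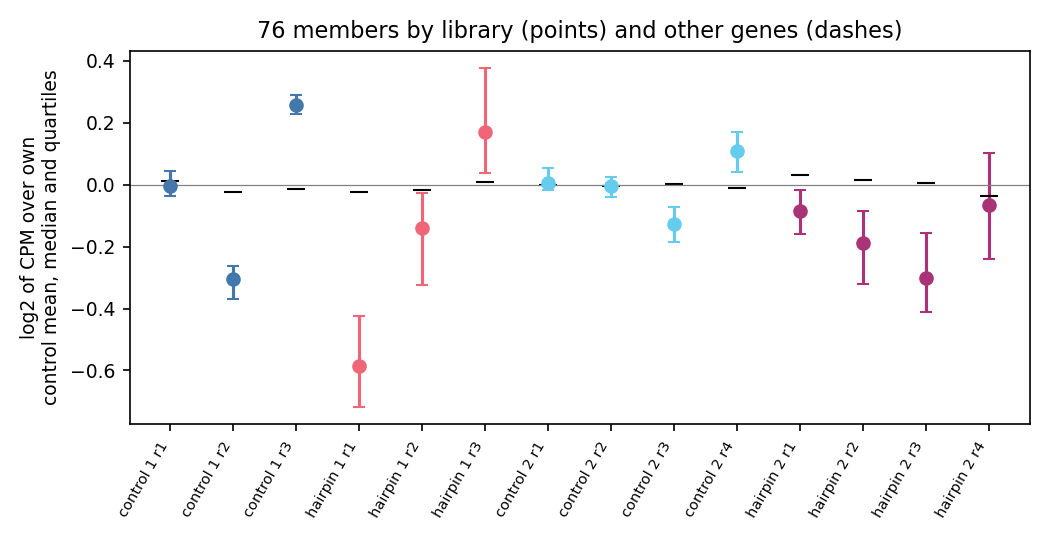
Level of 76 members in each library relative to the control mean of its own set (log2 of CPM ratio). Points are medians and bars the quartiles, and black dashes are the medians of other genes. Hairpin 1 replicate 1 is lowest at -0.59 and control 1 replicate 3 highest at 0.26, and the hairpin 2 libraries lie between -0.30 and -0.065.

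For hairpin 1, no member passed edgeR's quasi-likelihood test: 0 of 77 tested in either direction, where 0% of 13540 genes were called. DESeq2 also called 0 members, with 0.103% of genes lower and 0.0443% higher. At an unadjusted p under 0.05 there were 0 members and 733 genes by edgeR. The median log2 fold change of the members was -0.17, beside 0.03 for all genes, with 58 of 77 below 0. Leaving out hairpin 1 replicate 1 gave a median of -0.0023, and leaving out control 1 replicate 3 gave 0.00012. Rpl5, Rpl29, Rps6 and Rpl31 were among the 5 members with the smallest p, all with an adjusted p of 0.801. Rpl5 stood at 1914, 1903 and 2007 CPM in hairpin 1, all below the lowest control 1 library at 2048, a log2 fold change of -0.53 ± 0.23 SE. Rpl29 stood at 95.03, 92.4 and 119 CPM beside 142, 112 and 169 in control 1, and these overlapped. Rpl5 was the 1 member of 77 whose groups did not overlap, lower in hairpin 1, where 5.9% of 13103 genes were lower and 7.22% higher in that way.

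For hairpin 2, 1 member fell and none rose in edgeR's quasi-likelihood test: 1 of 78, where 4.01% of 14126 genes were lower and 2.04% higher. It was Rpl39, a short protein of the exit tunnel, at 55.2, 58.6, 53.1 and 56.4 CPM in control 2 and 51.2, 38.4, 44.9 and 43.4 CPM in hairpin 2. Every hairpin library was below every control library, and the log2 fold change was -0.33 ± 0.08 SE (adjusted p = 0.048). Its adjusted p in edgeR's test was 0.050046 with DESeq2's size factors, 0.055 with no filter on low counts, 0.893 in the model of all 14 libraries and 0.0067 with the replicate block. With 1 library left out it ran from 0.028 to 0.149 by edgeR, and the call was lost without any of the 4 control 2 libraries and without hairpin 2 replicate 2 or 3. With the replicate number as a block, edgeR called 22 members lower and 1 higher (Rps7), where 10.1% and 10.2% of genes were called. DESeq2 called 7 lower and 0 higher, beside 5.49% of genes lower and 4.04% higher. With DESeq2's size factors, with no filter on low counts or in a model of all 14 libraries, edgeR called 0. It called 9 members lower without hairpin 2 replicate 4, where 5.9% of genes were lower and 3.94% higher, and 20 without both libraries numbered 4. It called 2 without control 2 replicate 3 or without hairpin 2 replicate 1, and 0 without any other library of the set. The shares of all genes called are not given for the runs that called 20 and 2. Those counts therefore cannot be read as a result about the members.

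The members with the next smallest p were Rpl34, Rpl13, Rps18 and Rpl35a. Rpl34 stood at 186, 180, 162 and 208 CPM in control 2 and 158, 137, 126 and 155 CPM in hairpin 2, with no overlap (log2 fold change -0.35 ± 0.09 SE, adjusted p = 0.052, and 0.00017 with the block). Rpl13 stood at 32.2, 33.2, 29.6 and 33.2 CPM beside 27.7, 25.9, 21.1 and 27.2 (adjusted p = 0.064, and 0.0032 with the block). Rps18 and Rpl35a had adjusted p-values of 0.071 and 0.084 without the block and 0.0020 and 0.0029 with it. Over all members the median log2 fold change was -0.15, beside 0.00499 for all genes, with 67 of 78 below 0. The groups did not overlap for 10 of 78 members, all lower in hairpin 2, where 8.45% of 14124 genes were lower and 6.77% higher in that way. By subunit the medians were -0.15 for the large subunit, -0.13 for the stalk and -0.15 for the small subunit. The 8 epithelial markers, the defining genes of the cultured cells, summed to 4841 to 5399 CPM in hairpin 2 and 6057 to 6151 CPM in control 2, and 3 of 8 were called lower by edgeR. The part of that shift in the members' values was not tested.

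Rps6 and Rpl23a, which were nearly absent in set 2, had little precision there. Rpl23a stood at 0.598, 1.03, 0.826 and 0.835 CPM in control 2 and 0.212, 0.670, 0.405 and 0.617 CPM in hairpin 2, a log2 fold change of -0.78 ± 0.35 SE (adjusted p = 0.25). That was the most negative value of the family, and it did not pass the test. Rps6 had a log2 fold change of 0.03 ± 0.22 SE, and Rpl22, Rpl11, Rpl41, Rpsa, Rps27l and Rpl36al had adjusted p-values of 0.19 to 0.97 in the same edgeR test (for Rpl41, 0.046 with the block).

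**Figure D5:**
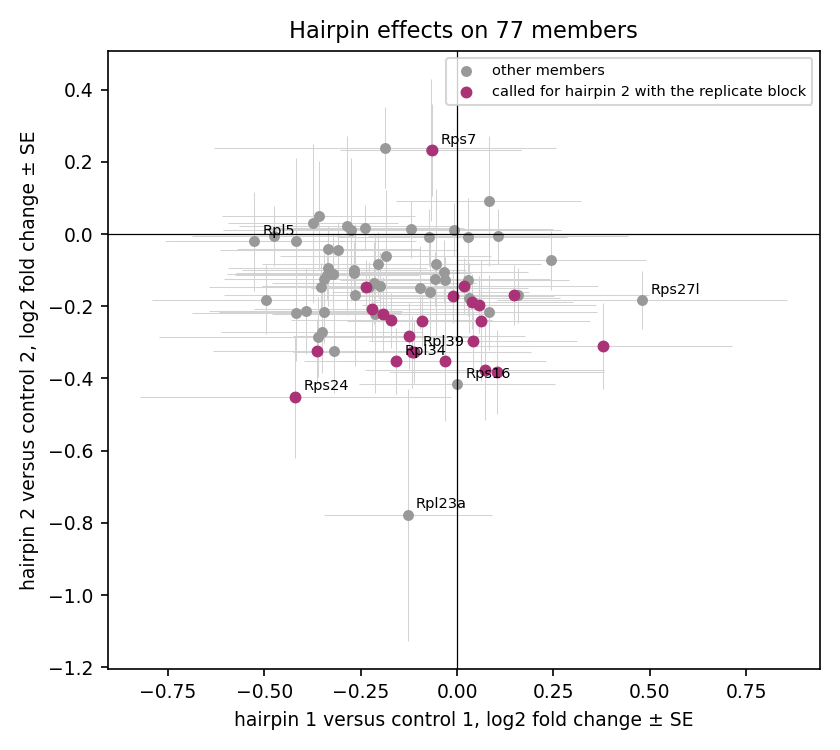
Log2 fold change of 77 members for hairpin 1 (horizontal) and hairpin 2 (vertical), with bars of ± SE from edgeR. Purple points are members called for hairpin 2 when the replicate number was a block (22 lower and Rps7 higher). Most points lie below 0 on the vertical axis, and bars on the horizontal axis are the longer ones.

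The difference between the hairpins, tested in a model of all 14 libraries, called 0 of 78 members in either direction, where 0.366% of 15043 genes were lower and 0.0465% higher for hairpin 2. At an unadjusted p under 0.05 there was 1 member. The median member value was -0.0013, beside -0.06 for all genes. Without hairpin 1 replicate 1 the test called 3 members lower for hairpin 2, Rps25, Rps27l and Rps28, where 3.98% of genes were lower and 2.28% higher.

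Other genes of translation were described by list. With hairpin 1, 0 genes of any list passed. With hairpin 2, 4.01% of all genes tested were lower and 2.04% higher by edgeR. Of the 11 genes in the elongation factor list, 2 fell, Eef1g (-0.28 ± 0.05 SE, adjusted p = 0.016) and Eef1b2 (-0.27 ± 0.07 SE, adjusted p = 0.040). Both are subunits of the exchange factor that recharges eEF1A. Of 24 other messages with a TOP motif, 3 fell: these 2 and Npm1, a nucleolar chaperone (-0.26 ± 0.06 SE, adjusted p = 0.031). Of 50 ribosome biogenesis factors, 3 fell, Npm1, Ftsj3 and Nolc1, and the median was -0.09. Of 20 genes of RNA polymerase I, 1 rose, Taf1b, a part of its promoter selectivity factor (0.39 ± 0.08 SE, adjusted p = 0.014). None of 30 initiation factors, 77 mitochondrial ribosomal proteins or 11 genes of the p53 list passed, by edgeR. The lists share members, and their medians for hairpin 2 lay between -0.10 and 0.08.

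Start sites were examined in RefSeq promoters on GRCm38.p6, 250 bases before to 50 after each annotated start, which matched 58 of 78 members. A C at the annotated start followed by at least 4 bases that are C or T, the letters of a TOP start, was present for 13 of 58 members (22.4%) and 3.01% of 27025 genes. The letters CTTTC within 20 bases of the start, on the coding strand, were present for 31.0% of members and 6.44% of genes. In Rps6 the run of pyrimidines from the start, in capitals, was 9 bases long (chr4:86857348-86857387, minus strand, 20 bases on each side). It is shown because Rps6 is the member with the largest set difference. The annotated starts of Rpl11, Rpl22 and Rpl4, looked at in the same way, each had a run of 0 bases.
Rps6 start: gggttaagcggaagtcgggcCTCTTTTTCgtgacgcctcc
A match describes letters at an annotated start only.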

How the data were processed

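Per the labels' protocols, libraries were strand-specific and made from poly(A) RNA. What the authors deposited are raw read counts for each gene, as whole numbers and without normalization. The submitters' processing notes name bcl2fastq 2.20, FastQC, STAR, featureCounts, DESeq2 and GRCm38. Of the settings, including how multi-mapping reads were treated, nothing is stated there. Set 1 files list 55421 genes and set 2 files 17490, of which GENCODE M21 matched 55240 and 17471. Total counts of 9272134 to 26284079 set the precision.

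CPM were counts over totals scaled by TMM across the 14 libraries. Tests used edgeR 4.0.16 (R 4.3.3) with filterByExpr, TMM and Benjamini-Hochberg adjustment at 0.05, with DESeq2 1.42.0 as an alternative. SEs were derived from the F statistic. The tests were run on simulated counts first. Lengths are of 1 principal transcript a gene. Window sharing was computed over annotated GENCODE M21 transcripts, in place of the planned genome, so unannotated copies were not seen. Members, lists and tests were chosen with earlier results of these data known. Named genes were members called for a hairpin, the 5 highest per kb in each set, the 6 most and 6 least negative set differences, the 5 smallest p per hairpin, and a fixed list of well-known members and paralogues; Rps2, Rps27, Rps7, Rps16, Rps25, Rps28, Rps15a, Rpl6, Rpl10a and Rpl12 were named after their values were seen. Results for some members that the rule named are not reported here. From other lists up to 3 genes with the smallest p were named, and Eef2 and Fau after their values were seen.

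In set 2, libraries with the same number deviated together (correlations of 0.33, 0.22, 0.34 and 0.66), so the numbers were taken as pairs and blocked values stand beside results whose call they change. Replicates 1 to 3 also correlated across numbers.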

Additional observations from a re-analysis of the deposited data

Results flagged for a closer look

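In groups of 4 libraries, 3 of 60 groups tested (30 quantities in control 2 and hairpin 2) held a library far from the other 3, and chance flags about 5% of groups. Rps18 in control 2 replicate 3 stood at 70.5 CPM, with the other libraries of its group at 86.6 to 86.9. Rplp1 stood at 429 CPM in the same library, against 497 to 507. Rps12 in control 2 replicate 4 was high at 35.7 CPM, against 24.4 to 26.3. No member passed the test of the difference between hairpins.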

How the results depend on the processing

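The count of members called for hairpin 2, 1 in the main analysis, was the least stable result. It was 7 with DESeq2, 0 with DESeq2 size factors, 0 with no filter on low counts, 0 in the model of all 14 libraries, 23 with the replicate block and 20 without both libraries numbered 4 of set 2. Leaving out 1 library gave 0 to 9, and shares of all genes are not given for every one of these runs. For hairpin 1 it was 0 under every alternative run, the replicate block included. Same-numbered libraries of set 1 correlated at 0.26, 0.014 and 0.28, and their numbers were not taken as pairs. The values 0.26 and 0.28 exceed the lowest of set 2, 0.22, so the sets were not treated by 1 rule. For the difference between hairpins it was 0 to 3 with 1 library left out. Members called between the controls, 76 in both directions, numbered 74 to 76 with 1 library left out. The rank correlation with length, 0.041, was 0.084 for members with at least 5 CPM in control 1, 0.074 between the hairpin groups, 0.015 with merged exon length, -0.066 with coding length and 0.068 without the 4 overlapped members. That with copies, -0.53, was -0.52 for members with at least 5 CPM, -0.58 with 32-base windows, -0.42 with named pseudogenes, -0.52 with the share of transcript windows, and, added after the data were seen, -0.82 and -0.82 with 50-base and 32-base coding windows, and -0.87 without the 4 overlapped members. With 1 library left out these 2 correlations were 0.039 to 0.043 and -0.53 throughout. The median set difference, -3.52, was -3.67 to -3.36 with 1 library left out. The share difference was -2.24 to -0.014 percentage points in set 1 and -0.21 to -0.12 in set 2, and the replicate block (exact sign flips) gave p = 0.5 and 0.125, where the smallest possible were 0.25 and 0.125, so neither could pass 0.05. Beside the members counted above, the block called Kmt5c for hairpin 2 (adjusted p = 0.0074 by edgeR). In set 2, members at a few CPM are limited by depth.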

Other observations

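Rps16, a small subunit protein, split the hairpin 2 libraries. It stood at 83.0, 83.5, 76.3 and 90.3 CPM in control 2 and at 91.2, 94.2, 26.9 and 33.6 CPM in hairpin 2. Replicates 3 and 4, the shallower libraries, were both under 50% of replicates 1 and 2. Of 10331 genes tested with at least 5 CPM in hairpin 2, it was the 1 gene with that pattern, and 3 genes showed the opposite, at over 200%. All coding windows of Rps16 were found at another locus. Rps16 was picked after its values were seen.

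Some members were highest in the libraries numbered 4 of both set 2 groups. Rpl10a stood at 50.3, 49.3, 45.2 and 64.4 CPM in control 2 and 44.5, 44.6, 35.4 and 81.6 CPM in hairpin 2. Rpl12 stood at 42.6, 38.6, 35.0 and 57.3 CPM and at 36.9, 34.1, 32.8 and 59.9 CPM. These were also picked after their values were seen.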
